A study of Sus scrofa with 16 samples.

Results

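The 10 genes of a pair of growth pathways, out of 22629 genes in the deposited tables, were followed across the left ventricle of injured and sham-operated young pigs. They were chosen by symbol. *NRG1* encodes the ligand neuregulin 1, *ERBB2*, *ERBB3* and *ERBB4* encode receptors, *YAP1* and *WWTR1* (also called TAZ) encode transcriptional coactivators, *TEAD1* encodes their DNA-binding partner, and *LATS1*, *LATS2* and *SAV1* encode parts of the Hippo kinase cassette.

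In the heart, neuregulin 1 is released mainly by endothelial cells and binds ERBB4 or ERBB3, which pair with ERBB2, a receptor that binds no ligand of its own. The pair then signals through kinase cascades that act on growth and survival of cardiomyocytes. In the Hippo pathway, the kinases STK3 and STK4, with the scaffold SAV1, activate LATS1 and LATS2, which phosphorylate YAP1 and TAZ and keep them out of the nucleus. Unphosphorylated YAP1 and TAZ enter the nucleus and drive transcription with TEAD factors. Both pathways are known for their part in cardiomyocyte proliferation in the young heart. Much of this control acts on proteins, which RNA levels do not show.

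The samples came from 8 White Yorkshire-Landrace farm pigs operated on at 30 days of age. In 4 IR (ischemia/reperfusion) pigs the left anterior descending coronary artery was closed for 1 h and then reopened, and in 4 sham pigs the same surgery was done without closing the artery. Left ventricular tissue was collected 4 weeks later from a scar zone, just below the suture, and from the border zone next to it. This gave 16 samples, with 4 pigs, 2 females and 2 males, in each of the groups IR scar, sham scar, IR border and sham border. The scar zone of IR pigs held both scar and surviving myocardium, and in sham pigs the piece called scar came from the suture site, where chest opening and suture also injure tissue but the artery stayed open. IR pigs are numbered 2, 9, 11 and 14, and sham pigs 4, 5, 12 and 13, as in the labels.

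Library totals, as sums of estimated counts, ran from 15427663 to 49045206. The libraries of the 2 male IR pigs (33521418 to 49045206) were deeper than those of the 2 female IR pigs (15427663 to 21166014), so depth went with sex within the IR group. In the IR scar library of pig 14, a female, the Y-linked gene *DDX3Y* was at 4.47 CPM, above the 0.399 to 1.21 CPM of the 7 other female libraries and far below the 68.3 to 103 CPM of the 8 male ones. Whether that library holds RNA of a male pig was not tested. Values without pig 14 are given for some of the results, not for all. All 9 cardiomyocyte markers with an entry were present in all samples, with summed levels of 62764 to 103251 CPM. Fibroblast markers summed to 24397 CPM in the IR scar library of pig 9 and 33180 CPM in that of pig 11, and to between 4752 and 7860 CPM in the other 14 samples. CPM is the count scaled to a common library size after TMM scaling, which assumes that the bulk of genes have the same level in all libraries. Levels of different genes are compared only in TPM, which also divides by transcript length. Whether the annotated lengths are complete was not tested, and rankings and family shares rest on them.

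By TPM, *WWTR1* had the highest mean of the 10 genes in all 4 groups, and *NRG1* the lowest. The mean of 550 estimated counts of *WWTR1* over all samples was below that of *YAP1* (1524) and *TEAD1* (2060). The rank of *WWTR1* thus rested on the transcript lengths used. In sham scar tissue *WWTR1* was at 26.7 TPM ± 3.41 (SD, n = 4) and *TEAD1* at 25.1 TPM ± 2.77, and their ranges overlapped. *SAV1* came next at 16.8 TPM ± 1.01, below every *TEAD1* value. *LATS2* (14.2 TPM ± 2.53), *ERBB2* (14.2 TPM ± 1.37) and *YAP1* (13.1 TPM ± 1.27) overlapped one another in range, and *LATS2* and *ERBB2* also overlapped *SAV1*. *LATS1* followed at 4.54 TPM ± 0.611, *ERBB4* at 2.63 TPM ± 0.457 and *ERBB3* at 1.73 TPM ± 0.397. The step from *YAP1* to *LATS1* and the step from *LATS1* to *ERBB4* had no overlap, whereas *ERBB4* and *ERBB3* overlapped. *NRG1* was at 0.0853 TPM ± 0.101. In IR scar tissue the order was the same down to *SAV1*, with *WWTR1* at 29.1 TPM ± 6.20 and *TEAD1* at 22.7 TPM ± 4.50, and the step from *LATS2* (12.2 TPM ± 2.09) to *LATS1* (5.66 TPM ± 1.99) was the one without overlap. In this group *ERBB3* stood above *ERBB4*, at 2.19 TPM ± 1.44 against 1.81 TPM ± 0.559, with overlapping ranges. Border tissue kept *WWTR1* (24.5 TPM ± 2.96 in IR and 25.3 TPM ± 4.41 in sham pigs) and *TEAD1* (22.2 TPM ± 8.14 and 22.9 TPM ± 4.69) at the top. There *SAV1*, *YAP1*, *ERBB2* and *LATS2* lay between 11.9 and 16.0 TPM on average, *LATS1* at 4.91 and 4.34 TPM, *ERBB4* at 1.81 and 2.79 TPM, and *ERBB3* at 1.46 and 1.77 TPM.

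**Figure D1:**
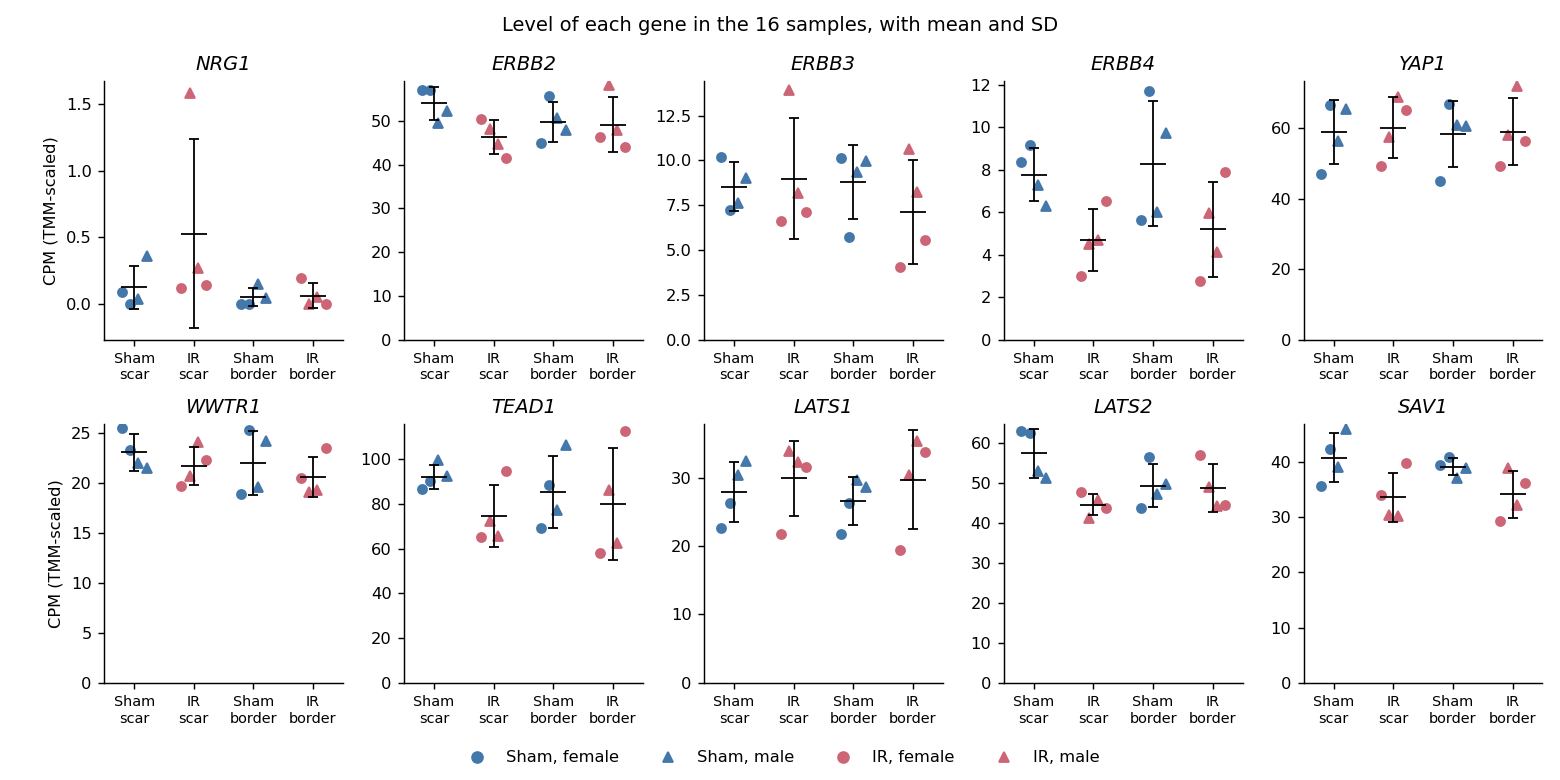
CPM of each of the 10 genes (vertical axes from 0, except for *NRG1*, whose error bar passes below 0) in the 4 groups, with a point per pig and the mean and SD in black. Circles are females and triangles males. *LATS2* is the gene whose 4 IR scar points (41.3 to 47.5 CPM) all lie below its 4 sham scar points (51.2 to 62.9 CPM), and the single high *NRG1* point is the IR scar sample of pig 9 at 1.58 CPM.

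The first question was whether the genes differed between IR and sham pigs in the scar zone, where 9 of the 10 genes passed the filter on low counts and 14023 genes were tested. None of the 9 passed at an adjusted p of 0.05 by edgeR's quasi-likelihood test with Benjamini-Hochberg adjustment, nor did any gene of the table (0.0% of genes tested). *ERBB4*, *TEAD1* and *LATS2* were lower in IR pigs at an unadjusted p of at most 0.05, 3 of 9 genes, and 0 of 9 were higher. Among all genes tested, 4.64% were lower and 6.57% higher by that rule. The median log2 fold change of the 9 genes was -0.23, against 0.03 for all genes. DESeq2 also gave 0 of these genes at an adjusted p of 0.05, with a smallest adjusted p of 0.146 for *ERBB4*, although 87 of its 18599 genes passed. At an unadjusted p it had 5 of the 9 lower, against 4.7% of its genes.

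The ligand *NRG1* was close to the limit of detection. It had 0 counts in 5 of the 16 samples, and 3 counts is the smallest number taken here as detected. The IR scar samples held 2, 68, 9 and 2 estimated counts (pigs 2, 9, 11 and 14), and the sham scar samples 2, 0, 1 and 9 (pigs 4, 5, 12 and 13). In the border zone the IR samples held 4, 0, 2 and 0 counts and the sham samples 0, 0, 3 and 1. The IR scar library of pig 9 thus supplied 68 of the 103 counts, and no other library held more than 9. *NRG1* did not pass the filter on low counts. Fitted without that filter, its log2 fold change in the scar zone was 2.15 ± 1.06 (SE), with an adjusted p of 0.486 (edgeR), and an exact two-sided permutation test of log2 CPM gave p = 0.200. The fibroblast markers were also high in that library, and higher still in the IR scar library of pig 11, which held 9 *NRG1* counts. Their part in the *NRG1* level was not tested.

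Of the other neuregulins, *NRG2* was at 0 to 0.175 TPM. *NRG4*, a ligand of ERBB4, was at 47.4 to 71.7 TPM and made up 99.6% of the summed TPM of *NRG1*, *NRG2* and *NRG4* over all samples. That TPM rested on only 117 to 377 estimated counts per sample. *NRG4* had a log2 fold change of -0.32 ± 0.21 (SE) in scar tissue and -0.24 ± 0.19 in border tissue, neither past an unadjusted p of 0.05. Of 15 ligands and the proteases that shed them, 13 had an entry and 10 were tested. In scar tissue 1 of the 10 was higher at the unadjusted p and 0 were lower, against 6.57% and 4.64% of all genes. This was *HBEGF*, a ligand of EGFR and ERBB4, at 10.8, 12.4, 27.6 and 10.03 CPM in IR pigs and 7.19, 9.83, 8.47 and 9.29 CPM in sham pigs. Every IR value lay above every sham value, as for 2.2% of all genes, with pig 11 the highest. Its log2 fold change was 0.80 ± 0.31 (SE), with an adjusted p of 0.438 (edgeR). Without pig 11 it was 0.35, and the unadjusted p was above 0.05 without pig 11 (0.0763), pig 12 (0.0623) or pig 4 (0.0746). In border tissue it was 0.82 ± 0.38, with overlapping groups, at 5.65 CPM in pig 9 and 23.0 CPM in pig 11. The border value was 0.50 without pig 11 and 1.09 without pig 9, with unadjusted p of 0.201 and 0.00289.

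*ERBB4*, the neuregulin receptor with both ligand binding and kinase activity, had the most negative fold change of the 9 tested genes in both zones. In the scar zone it was at 3.003, 4.52, 4.70 and 6.54 CPM in IR pigs 2, 9, 11 and 14, and at 8.36, 9.15, 7.26 and 6.28 CPM in sham pigs 4, 5, 12 and 13. Of the 4 IR pigs, 3 lay below every sham pig, and pig 14 lay just above sham pig 13. The log2 fold change was -0.74 ± 0.24 (SE), or 40.1% lower, with an unadjusted p of 0.0135 and an adjusted p of 0.438 (edgeR). The exact two-sided permutation test gave p = 0.0571, where 4 pigs against 4 cannot go below 0.0286. The difference was -0.97 between the females and -0.54 between the males on the log2 CPM scale. Leaving out 1 pig at a time gave -0.93 (without pig 14) to -0.59 (without pig 2), each with an unadjusted p of at most 0.0404.

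In the border zone *ERBB4* was at 2.75, 5.98, 4.13 and 7.89 CPM in IR pigs and 5.65, 11.7, 6.02 and 9.70 CPM in sham pigs. Both groups spread widely and overlapped, with the lowest IR value again in pig 2. The log2 fold change was -0.68 ± 0.34 (SE), with an adjusted p of 0.988 (edgeR) and an exact permutation p = 0.143. Without pig 14 it was -0.95, with an unadjusted p of 0.0219, and without pig 4 -0.82, with an unadjusted p of 0.0482. The IR effect did not differ measurably between zones for this gene, with an interaction of -0.05 ± 0.44 (SE) on the log2 scale, an interval of 2 SE each side from -0.94 to 0.84.

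*ERBB2*, the co-receptor, was the main ERBB receptor RNA at 67.7% ± 4.42 (SD, n = 16) of the summed TPM of *EGFR*, *ERBB2*, *ERBB3* and *ERBB4*. In the scar zone it was at 50.4, 48.1, 44.8 and 41.5 CPM in IR pigs and 57.1, 57.1, 49.6 and 52.4 CPM in sham pigs. IR pig 2 lay above sham pig 12 and the other 3 IR pigs lay below all sham pigs. Its log2 fold change was -0.23 ± 0.11 (SE), with an adjusted p of 0.453 (edgeR) and an exact permutation p = 0.0571. Border samples gave -0.02 ± 0.12, with IR values of 44.05 to 58.3 CPM and sham values of 45.0 to 55.7 CPM.

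*ERBB3*, which binds neuregulin but has little kinase activity of its own, was at 6.63 to 13.9 CPM in IR scar and 7.23 to 10.2 CPM in sham scar tissue. The highest value was that of IR pig 9. Its log2 fold change was 0.07 ± 0.25 (SE), and -0.24 without pig 9. Border samples held 4.07, 10.6, 8.22 and 5.53 CPM in IR pigs and 10.1, 5.73, 9.36 and 9.94 CPM in sham pigs, for a log2 fold change of -0.30 ± 0.29, and from -0.54 (without pig 9) to -0.10 (without pig 2) with single pigs left out. Neither difference exceeded the spread between pigs.

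*ERBB4* took 8.72% ± 3.39 (SD, n = 4) of the receptor TPM in IR scar and 12.6% ± 1.63 in sham scar tissue, and 9.52% ± 3.92 and 13.99% ± 3.82 in the border zone. *EGFR*, which does not bind neuregulins, took 16.0% ± 5.66 in IR scar against 11.2% ± 1.98 in sham scar tissue. The *EGFR* log2 fold change was 0.40 ± 0.29 (SE) in the scar zone, with values of 15.7 and 20.6 CPM in pigs 9 and 11 and 10.2 and 7.49 CPM in pigs 2 and 14. It was 0.12 without pig 11 and 0.59 without pig 14, the latter with an unadjusted p of 0.0388. The 2 IR pigs with high *EGFR* were those with high fibroblast markers, and the part of these cells in the receptor shares was not tested. The log2 TPM ratio of *ERBB4* to *ERBB2* was lower in IR pigs by 0.54 in the scar and 0.69 in the border zone, with exact permutation p = 0.114 and p = 0.143, both 0.286 after Benjamini-Hochberg adjustment over 6 ratio tests. Thus neither ratio differed beyond the spread between pigs.

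Of 22 receptors, adaptors, downstream kinases and inhibitors of ERBB signaling, 21 were tested in scar tissue. At the unadjusted p, *ERBB4* and *GAB1*, 2 of 21 genes, were lower and 0 were higher, against 4.64% and 6.57% of all genes. *GAB1*, an adaptor that docks onto activated receptors, was at 31.8, 37.9, 35.3 and 45.8 CPM in IR pigs and 47.7, 62.3, 46.5 and 42.6 CPM in sham pigs. As for *ERBB4*, only pig 14 of the IR pigs reached the sham range. Its log2 fold change was -0.41 ± 0.16 (SE), with an adjusted p of 0.438 (edgeR), and -0.52 without pig 14. The unadjusted p was above 0.05 without pig 5 (log2 fold change -0.28), pig 2 (-0.34) or pig 11 (-0.38). The list as a whole had a median of 0.08, against 0.03 for all genes. Among border samples 0 of 21 passed, against 1.69% of all genes lower and 2.09% higher.

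**Figure D2:**
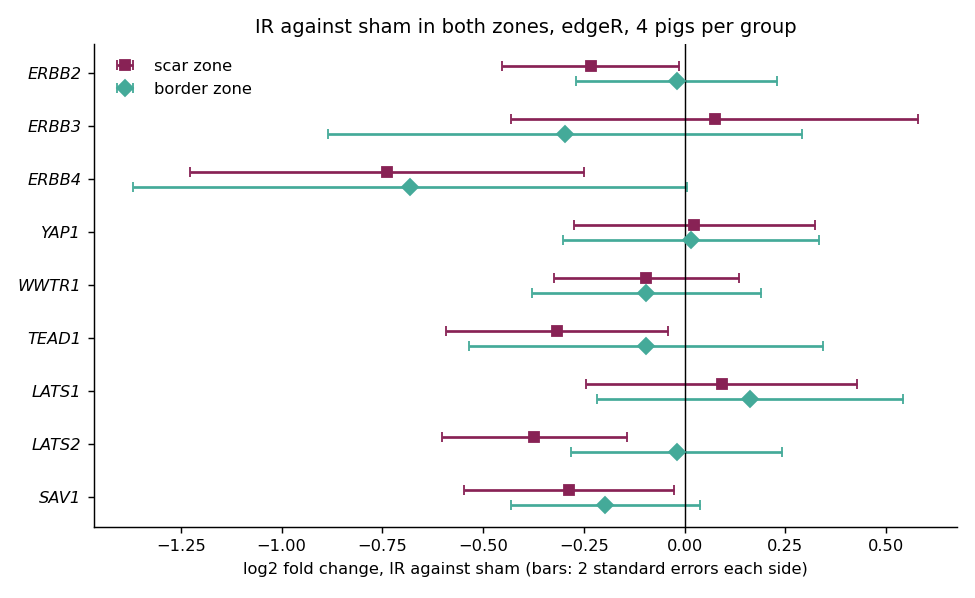
log2 fold change of IR against sham pigs (horizontal axis) for the 9 tested genes in the scar zone (squares) and border zone (diamonds), with bars of 2 standard errors each side, from edgeR with 4 pigs per group. *ERBB4* lies at -0.74 and -0.68 in the scar and border zones, while *LATS2* lies at -0.37 in the scar and -0.02 in the border zone. A bar that clears 0 is not a passed test. The scar zone bars of *ERBB2* and *SAV1* end at -0.01 and -0.03, with unadjusted p of 0.0607 and 0.0532 (edgeR).

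The coactivators differed little. *YAP1* was at 49.2, 57.4, 68.9 and 65.2 CPM in IR scar and 47.1, 66.6, 56.4 and 65.4 CPM in sham scar tissue. The groups covered almost the same range, and the log2 fold change was 0.02 ± 0.15 (SE), an interval of 2 SE each side from -0.28 to 0.32. *WWTR1* was at 19.8, 20.7, 24.2 and 22.3 CPM in IR scar and 25.6, 23.3, 22.0 and 21.5 CPM in sham scar tissue. Here 2 of the 4 IR pigs were below all sham pigs, and the log2 fold change was -0.09 ± 0.11 (SE), an interval from -0.32 to 0.13. Across border samples *YAP1* was at 49.4 to 72.1 CPM in IR and 45.1 to 66.8 CPM in sham pigs, and *WWTR1* at 19.2 to 23.5 CPM and 19.0 to 25.3 CPM. Their border log2 fold changes were 0.02 ± 0.16 and -0.10 ± 0.14.

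*WWTR1* made up 65.7% ± 3.397 (SD, n = 16) of the summed TPM of the pair, and between 58.3% and 73.6% in every sample. The log2 ratio of *WWTR1* to *YAP1* was lower in IR pigs by 0.10 in the scar zone (exact permutation p = 0.771) and by 0.09 in the border zone (exact permutation p = 0.714). Both are 0.771 after Benjamini-Hochberg adjustment over the 6 ratio tests.

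*TEAD1*, which binds DNA for both coactivators, was at 65.1, 72.6, 65.5 and 94.6 CPM in IR scar and 86.7, 90.3, 99.6 and 92.4 CPM in sham scar tissue. The IR pigs other than pig 14 were below every sham pig, and pig 14 was inside the sham range. The log2 fold change was -0.32 ± 0.14 (SE), or 19.7% lower, with an unadjusted p of 0.0452 and an adjusted p of 0.441 (edgeR), and an exact permutation p = 0.114. The unadjusted p stayed below 0.05 when pig 14 was left out (log2 fold change -0.45) and was above it when any other single pig was left out, with log2 fold changes of -0.35 to -0.26. Across border samples *TEAD1* varied more, at 58.1, 86.5, 62.5 and 113 CPM in IR pigs and 69.1, 88.7, 77.3 and 107 CPM in sham pigs. Its log2 fold change there was -0.10 ± 0.22.

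Of the other TEAD genes, *TEAD2* was the most abundant at 43.1% ± 4.20 (SD, n = 16) of the summed TEAD TPM, followed by *TEAD1* (23.4% ± 3.96), *TEAD3* (20.2% ± 3.57) and *TEAD4* (13.3% ± 2.24). *TEAD2* was at 65.0, 42.3, 46.3 and 65.1 CPM in IR scar and 78.4, 72.3, 66.2 and 72.1 CPM in sham scar tissue. Its groups did not overlap, as for 2.65% of all genes with IR lower, and the log2 fold change was -0.41 ± 0.16 (SE), with an adjusted p of 0.438 (edgeR). It was -0.51 to -0.32 with single pigs left out, and the unadjusted p was above 0.05 without pig 4, 5, 9, 11 or 13. *TEAD3* had a log2 fold change of -0.06 ± 0.19 and *TEAD4* 0.12 ± 0.17 in the scar zone. *VGLL3*, a cofactor of TEAD proteins, was at 2.33, 6.74, 8.41 and 2.61 CPM in IR scar and 2.10, 1.29, 2.03 and 2.80 CPM in sham scar tissue. Pigs 9 and 11 were high, as for the fibroblast markers, and pigs 2 and 14 were within the sham range of *VGLL3*. The log2 fold change was 1.29 ± 0.45 (SE), with an adjusted p of 0.438 (edgeR), and 0.94 without pig 11, with an unadjusted p of 0.0568. *VGLL4*, which competes with YAP1 for TEAD proteins, had 0.07 ± 0.11. In all, 2 of 8 tested YAP, TAZ, TEAD and VGLL genes were lower and 1 higher at an unadjusted p of at most 0.05 in scar tissue, against 4.64% and 6.57% of all genes. For border tissue it was 0 of 8, against 1.69% and 2.09%.

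**Figure D3:**
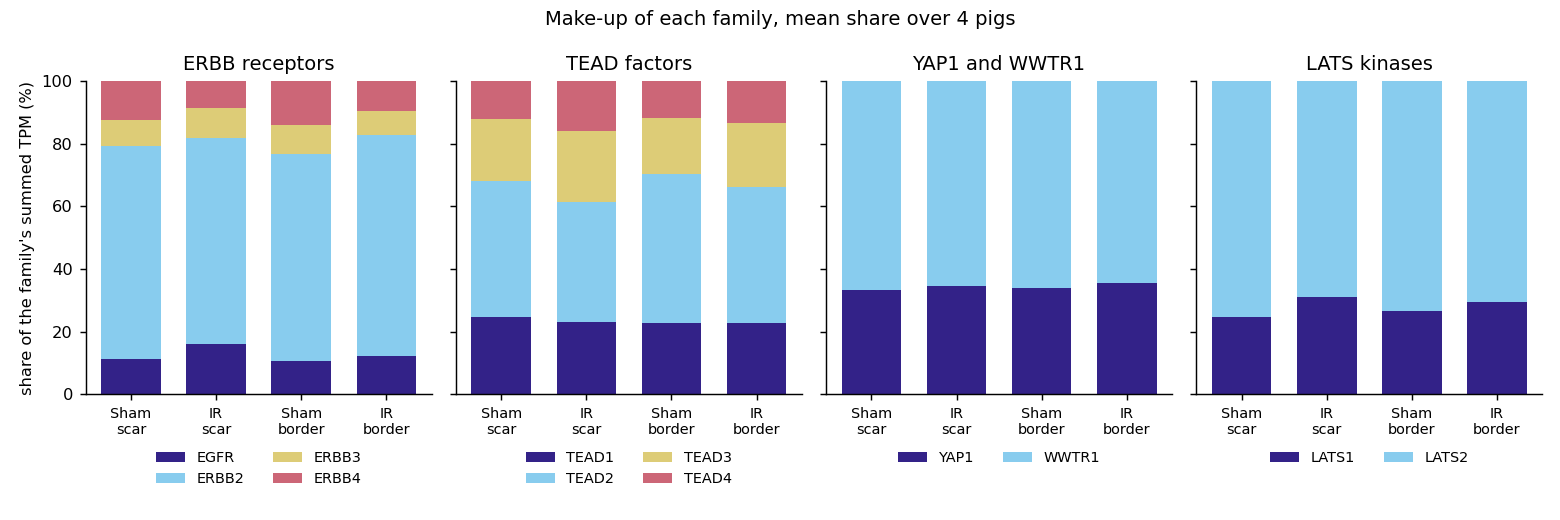
Share of each family's summed TPM (vertical axis, percent) held by each gene, as the mean over 4 pigs in each group. *ERBB2*, *TEAD2*, *WWTR1* and *LATS2* hold the largest mean share of their families in all 4 groups, and *ERBB4* holds 8.72% in IR scar and 12.6% in sham scar tissue.

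*LATS2*, a kinase that inactivates YAP1 and TAZ and is itself a YAP1 and TAZ target, was the gene with the clearest separation in the scar zone. It was at 47.5, 41.3, 45.6 and 43.6 CPM in IR pigs 2, 9, 11 and 14 and at 62.9, 62.3, 52.8 and 51.2 CPM in sham pigs 4, 5, 12 and 13. All 4 IR values lay below all 4 sham values, as was so for 1 of the 9 genes, against 2.65% of all genes tested with IR lower and 2.2% with IR higher. The log2 fold change was -0.37 ± 0.11 (SE), or 22.8% lower, with an interval of 2 SE each side from -0.60 to -0.14. The unadjusted p was 0.00908 and the adjusted p 0.438 (edgeR). The exact permutation p = 0.0286 is the smallest that 4 pigs against 4 can give. The difference was -0.46 between females and -0.26 between males in log2 CPM, and leaving out single pigs gave -0.43 to -0.33, with -0.37 without pig 14.

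The border zone did not show this difference. *LATS2* was at 56.9, 48.9, 44.1 and 44.5 CPM in IR pigs and 43.6, 56.5, 47.2 and 49.7 CPM in sham pigs. The groups overlapped fully and the log2 fold change was -0.02 ± 0.13 (SE), with an interval from -0.28 to 0.24. The test of the difference between zones gave -0.34 ± 0.16 (SE), with an unadjusted p of 0.0493 and an adjusted p of 1.00 (edgeR). This was 1 of 9 genes past the unadjusted p in that test, against 2.22% of the 14278 genes tested, and 0.0% passed at the adjusted p. With the pig as a block, which takes in that each pig gave both zones, the difference was -0.34, with an unadjusted p of 0.0244 and an adjusted p of 0.702 (edgeR). Again 1 of 9 genes passed the unadjusted p, against 6.99% of all genes in that fit. With single pigs left out and no block, the unadjusted p of this difference (edgeR) ranged from 0.0434 (without pig 13) to 0.173 (without pig 4). It was above 0.05 for 6 of the 8 pigs, pig 14 among them.

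*LATS1*, the other LATS kinase, did not follow *LATS2*. It was at 21.7, 34.0, 32.4 and 31.6 CPM in IR scar and 22.6, 26.3, 30.4 and 32.5 CPM in sham scar tissue, and the log2 fold change was 0.09 ± 0.17 (SE). Pig 2 had the lowest IR value in both zones, with 19.4 CPM in the border zone against 30.5, 35.4 and 33.8 CPM in pigs 9, 11 and 14. These 3 lay above the sham border values of 21.8 to 29.7 CPM, and the log2 fold change was 0.16 ± 0.19. Without pig 2 it was 0.32, with an unadjusted p of 0.0445. *LATS2* made up 68.9% ± 5.34 (SD, n = 4) of the LATS TPM in IR scar and 75.4% ± 5.32 in sham scar tissue. The log2 TPM ratio of *LATS2* to *LATS1* was lower in IR scar tissue by 0.48, with an exact permutation p = 0.143, or 0.286 after Benjamini-Hochberg adjustment over 6 tests.

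*SAV1*, the scaffold of the kinases upstream of LATS, was at 33.9, 30.5, 30.2 and 39.7 CPM in IR scar and 35.6, 42.3, 39.1 and 46.0 CPM in sham scar tissue. IR pigs 2, 9 and 11 were below every sham pig. Its log2 fold change was -0.29 ± 0.13 (SE), with an adjusted p of 0.446 (edgeR) and an exact permutation p = 0.0857. With all pigs the unadjusted p was 0.0532 (edgeR). Without pig 14 the log2 fold change was -0.38, with an unadjusted p of 0.0172 and an adjusted p of 0.218 (edgeR). *SAV1* also passed the unadjusted p without pig 4, by DESeq2, without the filter and in 1 fit of 16 samples. The same held with sex as a covariate and by upper-quartile scaling, but not by limma on TPM. The difference was -0.08 between females, of whom pig 14 is 1, and -0.48 between males. In the border zone *SAV1* was at 29.3, 38.9, 32.2 and 36.1 CPM in IR pigs and 39.5, 40.9, 37.2 and 38.9 CPM in sham pigs, with a log2 fold change of -0.20 ± 0.12 and an exact permutation p = 0.0571.

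The kinases that SAV1 holds together were present at 6.24 TPM ± 1.73 (SD, n = 16) for *STK3* and 4.16 TPM ± 1.34 for *STK4*. Both had a log2 fold change of 0.19 in the scar zone, with SE of 0.24 and 0.20. Of 30 genes of the Hippo kinase module and its upstream regulators, 28 were tested in scar tissue. At the unadjusted p, 1 of the 28 was lower (*LATS2*) and 0 were higher, against 4.64% and 6.57% of all genes, and the list's median was 0.00. None of the 28 passed in border tissue, where 1.69% of all genes were lower and 2.09% higher.

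Scar and border samples of the same pig were then set side by side. On the log2 CPM scale, *LATS2* was higher in scar than in border tissue in 4 of 4 sham pigs, by 0.22 ± 0.21 (SD, n = 4). In IR pigs the same difference was -0.12 ± 0.15, with 3 of 4 pigs lower in the scar zone. The within-pig differences of IR and sham pigs gave an exact permutation p = 0.0571. *ERBB3* was higher in the scar zone in 3 of 4 IR pigs, by 0.36 ± 0.29, and differed by -0.02 ± 0.27 in sham pigs (exact permutation p = 0.0857). For *ERBB4* both surgery groups split evenly, with 2 of 4 pigs higher in each zone, at -0.09 ± 0.29 in IR pigs and -0.04 ± 0.55 in sham pigs.

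Tested across genes, scar against border tissue gave 0 of 9 genes at the adjusted p and 0 at the unadjusted p in IR pigs, against 0.0% and 4.35% of 14170 genes. In sham pigs it gave 0 of 9 at both, against 0.0% and 0.819% of 13803 genes. With the pig as a block, *LATS2* passed the unadjusted p in sham pigs (1 of 9 genes, an unadjusted p of 0.0377 by edgeR), against 4.77% of all genes in that fit, and none passed the adjusted one.

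**Figure D4:**
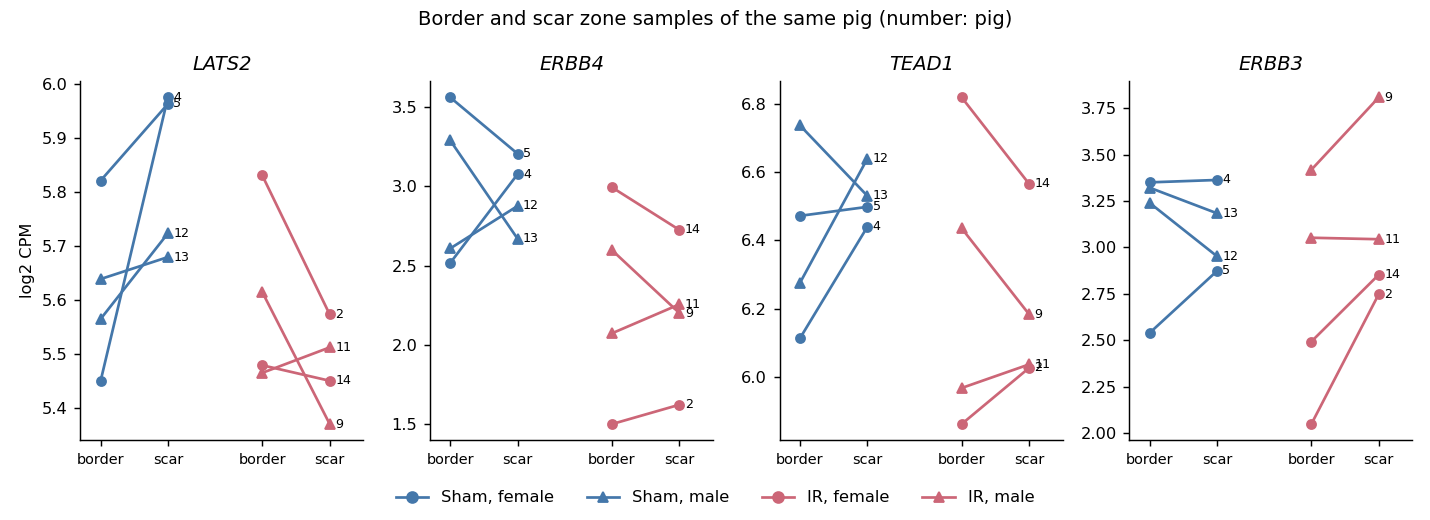
log2 CPM of *LATS2*, *ERBB4*, *TEAD1* and *ERBB3* (vertical axes, not starting at 0) in the border and scar zone samples of each pig, joined by a line and numbered by pig. For *LATS2*, all 4 sham pigs are higher in the scar zone and 3 of the 4 IR pigs are lower there.

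IR against sham in the border zone gave 0 of 9 genes at the adjusted p (0.0% of 13728 genes) and 0 of 9 at the unadjusted p, against 1.69% of all genes lower and 2.09% higher. None of the 9 had groups without overlap, against 1.24% of genes with IR lower and 0.809% with IR higher. Of the 9 log2 fold changes, 7 were negative, with a median of -0.10. DESeq2 gave 0 of 9 at either p, against 1.57% of its genes lower and 2.11% higher at the unadjusted p and 5 of 18397 genes at the adjusted one.

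The targets of YAP1 and TAZ were read from a list of 22 genes known from other cells, of which 21 were tested in scar tissue. At the unadjusted p, 7 were higher in IR pigs and 1, *LATS2*, was lower, against 6.57% and 4.64% of all genes. None passed at the adjusted p by edgeR, limma on TPM or DESeq2, whose smallest adjusted p was 0.0917 (*TGFB2*). The list's median log2 fold change was 0.09, against 0.03 for all genes, with 12 genes above 0 and 9 below. It turned to -0.04 without pig 14, and was 0.01 without pig 11 and 0.18 without pig 2. The 7 higher genes were *TGFB2*, *ANKRD1*, *CCDC80*, *RBMS3*, *CCN2*, *NUAK2* and *MYOF*.

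*ANKRD1*, a stress-responsive cardiac ankyrin repeat protein, was at 2758, 3018, 5332 and 2818 CPM in IR scar and 1599, 2154, 1667 and 2488 CPM in sham scar tissue. All IR values were above all sham values, as for 2.2% of all genes, and the log2 fold change was 0.81 ± 0.25 (SE), with an adjusted p of 0.438 (edgeR). *TGFB2*, a secreted growth factor, was at 11.7, 16.3, 25.3 and 15.2 CPM in IR pigs and 7.23, 6.99, 8.10 and 12.96 CPM in sham pigs, with 0.95 ± 0.27. *CCN2*, a matrix-associated protein of fibrosis, was at 202, 342, 556 and 277 CPM in IR pigs and 105, 268, 115 and 214 CPM in sham pigs, with 0.96 ± 0.37. For these 3 genes pig 11 had the highest value of the 8. Without pig 11 the log2 fold changes were 0.53 for *ANKRD1*, 0.71 for *TGFB2* and 0.64 for *CCN2*, and of the 3 only *CCN2* then missed the threshold (an unadjusted p of 0.0920).

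*CCDC80* and *MYOF* had another pattern. *CCDC80*, an extracellular matrix protein, was at 713 and 502 CPM in IR pigs 9 and 11, and at 150 and 116 CPM in IR pigs 2 and 14, inside the sham range of 112 to 172 CPM. *MYOF*, a membrane repair protein, was at 76.3 and 65.6 CPM in pigs 9 and 11, against 25.3 and 22.0 CPM in pigs 2 and 14 and 23.8 to 27.2 CPM in sham pigs. *RBMS3*, an RNA-binding protein, was also highest in pigs 9 and 11, at 15.4 and 13.1 CPM. Fibroblast markers were also high in the IR scar libraries of pigs 9 and 11, and their part in these levels was not tested. Without pig 9 the log2 fold changes of *CCDC80*, *MYOF* and *RBMS3* were 0.86, 0.55 and 0.56, against 1.41, 0.90 and 0.76 with all pigs, and none of the 3 passed the unadjusted p. *CCN1*, a paralog of *CCN2*, was at 45.7 to 116 CPM in IR and 36.5 to 153 CPM in sham scar tissue, with a log2 fold change of 0.09 ± 0.46, and -0.15 to 0.67 with single pigs left out.

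The count of 7 higher targets depended on single pigs. It was 2 without pig 11, 3 without pig 9, pig 12 or pig 4, 4 without pig 5, 5 without pig 13, 6 without pig 14 and 7 without pig 2. The share of all genes higher in IR pigs moved as well, from 3.24% without pig 11 and 3.43% without pig 5 to 10.2% without pig 2 and 10.3% without pig 14. The target count was 7 by DESeq2 and 4 by limma on TPM, against 5.99% and 6.66% of all genes. Among border samples 0 of 21 targets were higher and 1 was lower, against 2.09% and 1.69% of all genes. The lower gene was *F3* (tissue factor), at 8.73, 12.5, 14.7 and 16.3 CPM in IR pigs and 18.8, 20.0, 21.5 and 19.1 CPM in sham pigs. Its groups did not overlap, as for 1.24% of all genes with IR lower, and the log2 fold change was -0.60 ± 0.18 (SE), with an adjusted p of 0.988 (edgeR). Without pig 9, 4 targets were higher in the border zone, against 4.14% of all genes in that fit. In the test between zones, *MYOF* was higher and *LATS2* lower at the unadjusted p, 2 of 21 genes, against 1.96% of all genes higher and 0.259% lower.

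**Figure D5:**
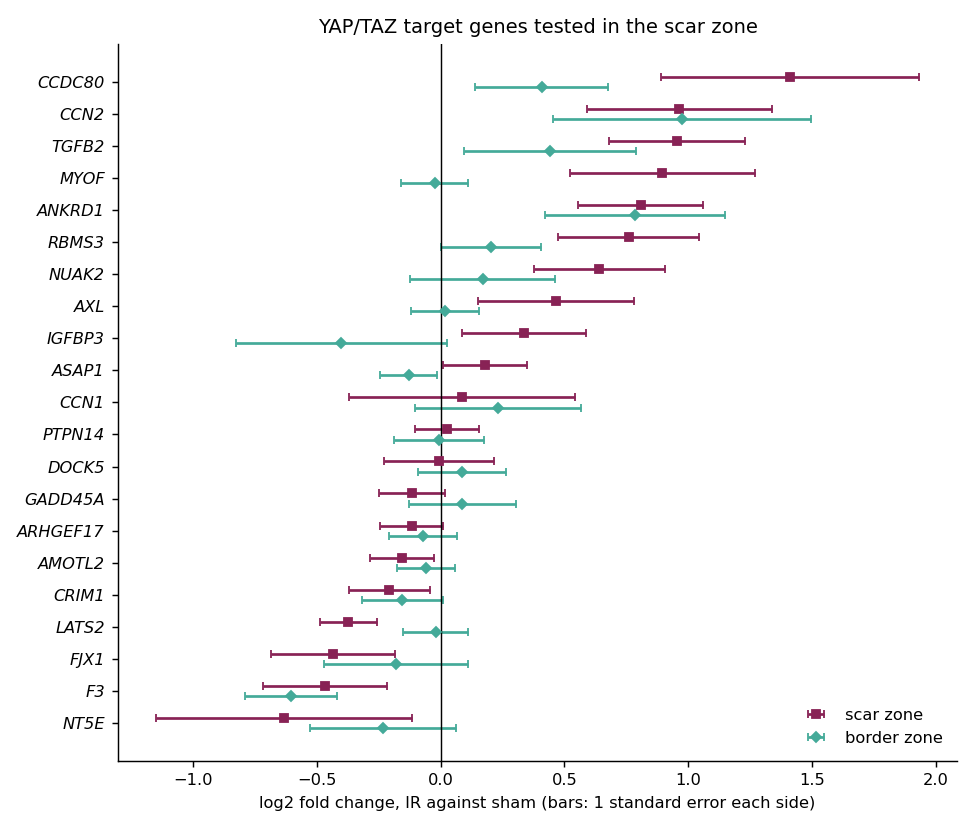
log2 fold change of IR against sham pigs (horizontal axis) for the 21 tested YAP/TAZ target genes, ordered by the scar zone value, with bars of 1 standard error each side. *CCN2* and *ANKRD1* have similar values in both zones (0.96 and 0.97, and 0.81 and 0.78), whereas *MYOF* lies at 0.90 in scar and -0.02 in border tissue.

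Marker lists of other cell types were read beside these genes in the scar zone. All 8 fibroblast markers had a positive log2 fold change (median 0.90, 3 of 8 higher at the unadjusted p, against 6.57% of all genes), with sums of 4752 to 33180 CPM in IR and 5596 to 7433 CPM in sham pigs. All 8 leucocyte markers (median 0.39), 7 of 7 Schwann cell markers (median 0.21) and 4 of 4 tested epicardial markers (median 1.26) were positive as well. Of 9 cardiomyocyte markers, 6 were negative, with a median of -0.26 and sums of 62764 to 85183 CPM in IR and 74846 to 103251 CPM in sham pigs. Of 8 endothelial markers, 6 were negative (median -0.14), as were 7 of 7 cell cycle markers (median -0.29), and smooth muscle markers had a median of 0.01. The epicardial marker *LRRN4* was at 0 in 9 samples, and no other marker with an entry was at 0. Only the fibroblast, smooth muscle, Schwann and epicardial lists held scar zone markers past the unadjusted p, and 0 of the leucocyte, cardiomyocyte, endothelial and cell cycle markers passed it. In tissue RNA, fewer cells of a type and less RNA per cell cannot be told apart. The part of cell makeup in the *ERBB4*, *TEAD1*, *LATS2* and YAP/TAZ target differences was not tested. In IR scar tissue of pigs 2 and 14, whose fibroblast marker sums were 5933 and 4752 CPM, *LATS2* was at 47.5 and 43.6 CPM, also below every sham pig. *ERBB4* in these pigs was at 3.003 and 6.54 CPM, the lowest and the highest of the IR pigs.

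The scale also bore on these values. On log2(TPM + 1) by limma, which has no scaling for makeup, the median of all genes in the scar zone was shifted by 0.15, and 0 of the 9 genes passed the unadjusted p. There *ERBB4* had -0.39, *LATS2* -0.20 and *TEAD1* -0.15, or -0.54, -0.35 and -0.30 relative to the median of all genes. At the mean *ERBB4* levels of 2.63 TPM in sham and 1.81 TPM in IR scar tissue, the added 1 by itself makes a log2 difference smaller.

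Across the 16 samples some of the genes varied together. These correlations are descriptions over samples that share pigs, 2 from each, and libraries of unequal depth. *ERBB4* and *TEAD1* had a Pearson r of 0.826 in log2 CPM, *ERBB4* and *SAV1* 0.695, *TEAD1* and *SAV1* 0.684, and *YAP1* and *LATS1* 0.731. *LATS2* and *ERBB2* had 0.682, and *LATS2* and *LATS1* -0.511. Samples low in *ERBB4* thus tended to be low in *TEAD1* and *SAV1*.

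Over 12167 symbols, the gene most like *ERBB4* was *ITGA6* (r = 0.956, n = 16), an integrin subunit, followed by *ARHGAP31* (0.896) and *SEMA6A* (0.896). *ITGA6* was also the gene most like *TEAD1* (0.901), before *ATXN1L* (0.891) and *ST8SIA4* (0.891). *LATS2* was most like *TOLLIP* (0.877), *DAB2IP* (0.848) and *TNRC18* (0.847), and *LATS1* most like *SHPRH* (0.957), *ATRX* (0.956) and *BNIP2* (0.955). *SAV1* was most like *ASB5* (0.915), *FRMD3* (0.898) and *DDO* (0.895), and *ERBB2* most like *JUP* (0.869), *WBP2* (0.868) and *NUMA1* (0.862). *ERBB3* was most like *ZNF397* (0.893), *PCF11* (0.880) and *SLC25A27* (0.862), and *YAP1* most like *MAP3K5* (0.865), *MCL1* (0.863) and *FBXO30* (0.838). The values for *WWTR1* were the lowest, with *TRIO* at 0.774, *ZEB1* at 0.771 and *UBR4* at 0.748. For *NRG1*, which rests on few counts, the genes were *SMOC1* (0.924), *FZD2* (0.900) and *SFRP1* (0.879).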

How the data were processed

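Polyadenylated RNA was sequenced from the scar and border zones of 8 pigs (16 samples), grouped by the labels. Per the labels and methods, the authors used Trimmomatic 0.33, HISAT2 2.0.5 and kallisto 0.43.1 with Ensembl pig cDNA, and the genome build is not given in the sources used here. They deposited estimated counts, unscaled, and deposited TPM, scaled for length and depth.

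Estimated counts were rounded and tested in edgeR 4.0.16 (R 4.3.3) with TMM, filterByExpr (minimum count 10, total 15), the two-sided quasi-likelihood test and Benjamini-Hochberg adjustment over all genes tested. Log2 CPM used a prior count of 2. The study's RUVSeq factors were not used, since their number is not stated. Single genes and ratios were compared by two-sided exact permutation tests. Standard errors were taken from the fold change and its F statistic. At these depths 3 counts limit detection, which covers counting error only.

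Alternatives were DESeq2 1.42.0, limma 3.58.1 on log2(TPM + 1) and log2(TPM + 0.1) (at least 4 samples reaching 1 TPM), upper-quartile scaling, no filter, sex as a covariate, 1 fit of 16 samples, the pig as a block and leaving out each pig. The scar and border samples of a pig come from the same animal, and their deviations from the group means correlated at 0.353 to 0.691 over 14311 genes. The tests were also run on simulated data, whose outcome is not given here and is not used as support.

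The genes and lists were chosen with earlier results of these data known. Named were the 10 genes, up to 8 genes of a pathway list with the smallest unadjusted p of at most 0.05 in the scar and 4 in the border zone, 12 pathway genes in any case, and the 3 symbols most correlated with each of the 10. Genes with no entry by symbol, such as *NRG3* and *MKI67*, were not used here. *CCN1* and *CCN2* are listed under older symbols.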

Additional observations from a re-analysis of the deposited data

Results flagged for a closer look

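*NRG1* in the IR scar zone was set apart by 1 library. Pig 9 was at 1.58 CPM (68 estimated counts), and its gap to the next pig took 0.895 of the range of the 4 pigs, above Dixon's 95% critical value for 4 samples. This was 1 flag among 52 groups tested, and chance alone flags about 1 group in 20. Fibroblast markers in this library summed to 24397 CPM, and their part in this value was not tested.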

How the results depend on the processing

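No adjusted call was made or gained for the 9 genes. By an unadjusted p, the scar zone count of 3 was 5 by DESeq2, 0 by limma on either TPM scale, and 2 to 4 with single pigs left out. It was 4, with *SAV1* added, without the filter, with sex as a covariate and by upper-quartile scaling. In 1 fit of 16 samples it stayed 3, with *SAV1* in place of *TEAD1*. Over all genes the share lower was 4.64% in the reported fit, 4.7% by DESeq2, 1.44% by limma on log2(TPM + 1), and from 2.18% (without pig 5) to 8.0% (without pig 2). That share was 8.08% with sex as a covariate, 4.66% without the filter or by upper-quartile scaling, and 5.07% in 1 fit of 16 samples. The border count of 0 became 1 (*ERBB4*) in 1 fit of 16 samples and 0 to 1 with pigs left out (*ERBB4* without pig 14 or pig 4, *LATS1* without pig 2), where 3.94%, 4.54%, 2.63% and 6.2% of all genes passed in either direction, against 3.78% in the reported fit. The count of 1 in the difference between zones became 0 by limma and by upper-quartile scaling, and 0 to 1 with pigs left out. Scar against border tissue of IR pigs gave 1 by DESeq2 and without the filter (*NRG1*), against 4.55% and 4.36% of all genes, and sham pigs gave 1 with the replicate block (the pig), against 4.77%. The block changed no other call of these genes. Of 576 alternatives for single genes, 472 kept their direction and side of the unadjusted threshold, 15 passed it anew, 23 lost it and 66 turned direction. Leaving out pigs gave 39 of the 66 and other settings 27, mainly limma on TPM, where the median of all genes moved too. The cause was not tested.

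By limma with 1 or 0.1 added to TPM, in that order, IR against sham turned for *ERBB2* in the border zone (0.0147, 0.0154), *LATS2* in the border zone (0.00369, 0.00395) and *WWTR1* in the scar zone (0.103, 0.106). The median of all genes on these scales was 0.0237 and 0.0251 in the border zone and 0.149 and 0.167 in the scar zone. The difference between zones turned for *ERBB4* (0.0548, 0.0807), *LATS1* (0.0883, 0.097) and *SAV1* (0.0597, 0.0641), where the median of all genes was 0.117 and 0.131. Scar against border tissue of IR pigs turned for *ERBB2* (0.067, 0.0705), *ERBB4* (0.0261, 0.0563), *LATS2* (0.0333, 0.0358), *SAV1* (0.124, 0.132) and *TEAD1* (0.0808, 0.0861). The median of all genes there was 0.126 and 0.143. Each of these limma values lay below its median of all genes, so relative to that median none of them turned. DESeq2 turned *LATS1* in scar against border tissue of IR pigs (-0.0122), and *WWTR1* (-0.00929) and *YAP1* (-0.00821) in the difference between zones, where no filter gave *WWTR1* -0.0039. Upper-quartile scaling turned *YAP1* in the border zone (-0.0073).

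Leaving out single pigs gave, in the scar zone, -0.242 to 0.19 for *ERBB3*, -0.00238 to 0.213 for *LATS1* and -0.0756 to 0.104 for *YAP1*. For the border zone it gave -0.103 to 0.0387 for *ERBB2*, -0.104 to 0.0518 for *LATS2*, -0.312 to 0.0286 for *TEAD1* and -0.0966 to 0.0918 for *YAP1*. In the difference between zones it gave -0.227 to 0.129 for *ERBB4*, -0.161 to 0.00766 for *SAV1*, -0.0815 to 0.126 for *WWTR1* and -0.0618 to 0.0519 for *YAP1*. In scar against border tissue of IR pigs it gave -0.0492 to 0.0655 for *LATS1*, -0.102 to 0.0889 for *SAV1*, -0.00607 to 0.116 for *WWTR1* and -0.048 to 0.0699 for *YAP1*. In sham pigs it gave -0.136 to 0.037 for *ERBB3*, -0.274 to 0.0813 for *ERBB4*, -0.0099 to 0.124 for *SAV1*, -0.0503 to 0.147 for *WWTR1* and -0.0262 to 0.0559 for *YAP1*. The log2 ratio of *WWTR1* to *YAP1* ranged from -0.187 to 0.0492 in the scar and -0.17 to 0.0401 in the border zone. At these depths *NRG1* and *NRG2*, with few counts, cannot be compared between groups.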

Other observations

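In sham pigs *LATS1* separated by sex, at 21.8 to 26.3 CPM in the 4 female and 28.7 to 32.5 CPM in the 4 male libraries, with 2 pigs of each sex. In IR pigs the females split, with 21.7 and 19.4 CPM in pig 2 and 31.6 and 33.8 CPM in pig 14, against 30.5 to 35.4 CPM in the males. *ERBB3* was at 4.07 to 10.2 CPM in female and 7.65 to 13.9 CPM in male libraries. These values were noticed after the data were seen, and no test was made on 2 pigs per sex and surgery.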
